A study of Homo sapiens with 6 samples.

Results

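Kinesins are motor proteins that hydrolyse ATP to walk along microtubules or to take microtubules apart. Division kinesins build and position the mitotic spindle, move chromosomes and cut the daughter cells apart. In cycling cells the mRNAs of many of them are made mainly in late S, G2 and M phase under the DREAM and MuvB complexes. Transport kinesins carry vesicles, organelles and mRNPs through the cytoplasm and are expressed through the whole cell cycle. The kinesin motor genes described here are the rows of the expression table whose symbol is KIF or KIFC followed by a number, with or without a letter, and whose mean over the 6 samples was at least 0.5 CPM, the reads of a gene per 1000000 counted reads. This rule took 32 of 42 kinesin rows, out of 13373 genes that passed the same minimum, and it used no difference between treatments.

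RNA was sequenced from LNCaP cells, a line from a lymph node metastasis of prostate cancer, grown in serum-containing medium. Cells were exposed for 4 h to 250 nM CDKI-73, an orally available inhibitor of CDK9, the kinase that releases paused RNA polymerase II, or to the solvent DMSO as vehicle. There were 3 biological replicates of each, and both groups share the same line, medium and polyA-selected stranded libraries. The study also reports inhibition of CDK1, CDK2 and CDK7 by CDKI-73 in kinase assays, with less activity than against CDK9. The DMSO libraries carry the name of CDKI-73 in their titles as well. They were grouped by their treatment label, which calls them vehicle, and the direction of each change depends on it.

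The steps between the deposited CPM correspond to 46.1 to 52.0 M (1000000) counted reads in the CDKI-73 libraries and 52.9 to 60.9 M counted reads in the DMSO libraries, so that 1 read was worth 0.0164 to 0.0217 CPM. All 7 luminal prostate markers examined in these LNCaP cells, KLK3 and KRT8 among them, were at 1 CPM or more in every sample, although single markers moved in either direction. KRT5 and TP63 of basal cells, CD3E of lymphocytes and PECAM1 and CDH5 of endothelium were at or near 0. KRT14 of basal cells was at 1.08 to 1.31 CPM in CDKI-73 samples and 0.51 to 1.08 CPM in DMSO samples, and COL1A1 of stroma and VWF of endothelium were above 1 CPM in every sample. The third CDKI-73 library stood apart from its group, with a median absolute log2 difference of 0.15 and 0.16 from the other two, which differed from each other by 0.07. Over all tested genes the median log2 fold change of CDKI-73 over DMSO was -0.18, on the scale of log2(CPM + 0.1), and because every library is scaled to the same total, changes are relative to the rest of the polyA RNA.

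Of the 32 kinesin genes, 22 (68.8%) fell and 3 (9.38%) rose in CDKI-73 samples at an adjusted p of 0.05 or less by limma, where 48.2% of all tested genes fell and 24.2% rose. A fall of at least 2-fold was called for 11 of the 32 (34.4%), against 22.3% of all tested genes, and a rise of at least 2-fold for 0 of them, against 1.11% of all tested genes. The median log2 fold change was -0.81 over the 32 members. The split of 22 falls and 3 rises became 18 and 7 under TMM (trimmed mean of log ratios) scaling and under scaling to the median gene ratio, 18 and 8 under upper quartile scaling, and 25 and 1 when the reference genes GAPDH, HPRT1 and ACTB set the scale. Falls of at least 2-fold then numbered 7, 8, 6 and 17, and KIF11, KIF15, KIF18A, KIF23, KIF2A and KIFC1 were among them under every setting tried. Without the third CDKI-73 library 11 members fell by at least 2-fold and 22 fell and 5 rose at the adjusted p. The groups did not overlap for 27 members (84.4%), a share to be read against 75.9% of all tested genes.

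**Figure D1:**
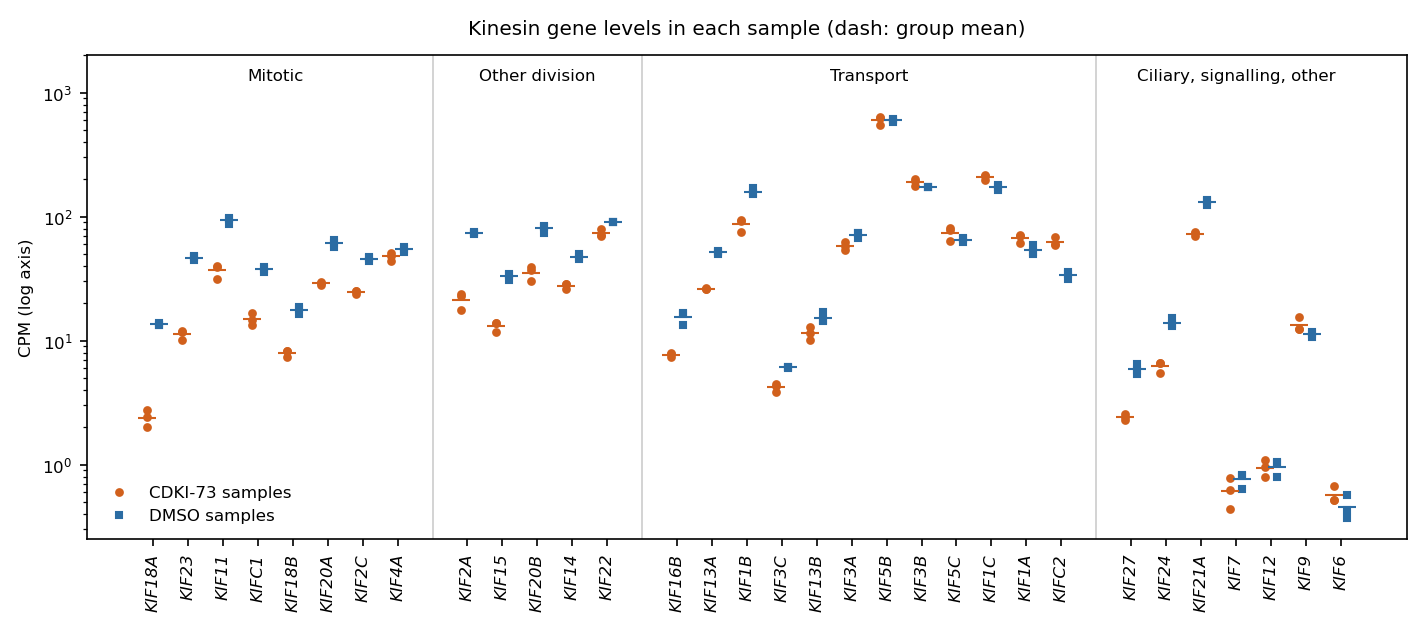
Level of each of the 32 kinesin genes in every sample, as CPM on a log axis, with CDKI-73 samples (orange circles) left of DMSO samples (blue squares) and dashes at the group means. Mitotic kinesins such as KIF18A and KIF23 sit well below their DMSO values, while KIF5B, the most abundant, spans 550.5 to 638.6 CPM in CDKI-73 samples and 579.4 to 609.7 CPM in DMSO samples.

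The members are given by role. All 8 mitotic kinesins named for the contrast with transport kinesins (KIF11, KIF18A, KIF18B, KIF20A, KIF23, KIF2C, KIF4A and KIFC1) fell, 6 of them by at least 2-fold, although KIF4A fell little and turned higher under TMM and upper quartile scaling. Their median log2 fold change was -1.24. The 5 other kinesins of cell division above the minimum (KIF14, KIF15, KIF20B, KIF22 and KIF2A) all fell too, 3 of them by at least 2-fold, with a median of -1.19. Among 12 transport kinesins 6 fell, 3 rose and 3 did not pass, none changed by 2-fold or more, and the median was -0.14, close to that of all tested genes. Under TMM, gene ratio and upper quartile scaling 4 transport kinesins fell and 6 rose, 1 of them by at least 2-fold, and under the reference genes 8 fell, 3 of them by at least 2-fold, and 1 rose. The remaining 7 kinesins, of cilia, signalling or other roles, had a median of -0.29, with 3 lower and 4 that did not pass.

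Measured from the median of all tested genes, the mitotic median was -1.06 and that of transport kinesins was 0.03. These distances ranged from -1.07 to -1.06 and from 0.02 to 0.04 under TMM, gene ratio, upper quartile or reference gene scaling. A scaling shifts all genes of a library alike, so the distances could change only through the pseudocount. The mitotic members together summed to 182.7, 179.0 and 162.6 CPM in CDKI-73 samples, against 349.5, 379.1 and 382.5 CPM in DMSO samples. The transport members summed to 1448, 1465 and 1293 CPM in CDKI-73 samples, against 1365, 1428 and 1452 CPM in DMSO samples, ranges that overlap. These sums weigh abundant genes most. KIF5B alone gave 625.7, 638.6 and 550.5 CPM of them in CDKI-73 samples and 579.4, 609.7 and 604.2 CPM in DMSO samples. Within each sample, the mean log2 level of mitotic members minus that of transport members was -1.67, -1.72 and -1.70 in CDKI-73 samples, against -0.59, -0.55 and -0.59 in DMSO samples, a difference of -1.12 that scaling of the libraries leaves almost untouched. The same distance for the other division members was -0.83, -0.83 and -0.86 in CDKI-73 samples and 0.05, 0.06 and 0.02 in DMSO samples. In both cases the 3 CDKI-73 libraries agreed closely, the third among them. Fewer cells in G2 and M phase and less mRNA per such cell cannot be told apart in bulk RNA.

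**Figure D2:**
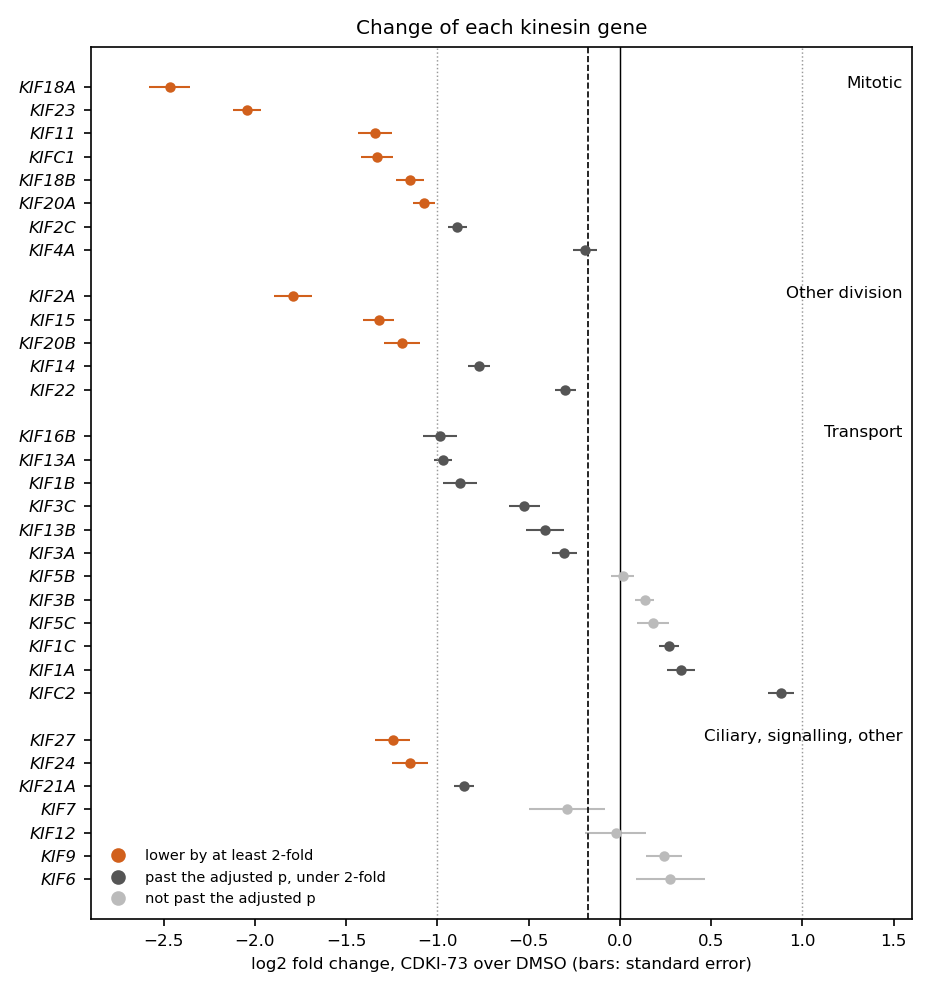
log2 fold change of CDKI-73 over DMSO for each kinesin gene, with the standard error of limma, grouped by role. A dashed line stands at the median over all tested genes (-0.18) and dotted lines mark 2-fold; all 13 division kinesins lie left of 0 on this scale, and only KIF4A and KIF22 of them lie within 0.30 of it.

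Promoter sequences are shown for 5 members, chosen after their values were seen because they span the outcomes, from the largest fall to no change. Each is the window from 250 bases before to 50 bases after the annotated start in RefSeq, on GRCh38.p14, the assembly also called hg38, printed in the direction of transcription. KIF18A (chr11:28108107-28108406, minus strand) and KIF23 (chr15:69414099-69414398, plus strand) fell most among the mitotic members, KIF4A (chrX:70289854-70290153, plus strand) changed least among them, KIF2A (chr5:62305956-62306255, plus strand) fell with no match to either motif, and KIF5B (chr10:32056376-32056675, minus strand) is the most abundant transport kinesin. Capitals mark matches on either strand to the CHR, the cell cycle genes homology region bound by MuvB complexes (TTTGAA, or TTCAAA on the other strand), and to the CCAAT box bound by NF-Y (CCAAT, or ATTGG on the other strand).
KIF18A: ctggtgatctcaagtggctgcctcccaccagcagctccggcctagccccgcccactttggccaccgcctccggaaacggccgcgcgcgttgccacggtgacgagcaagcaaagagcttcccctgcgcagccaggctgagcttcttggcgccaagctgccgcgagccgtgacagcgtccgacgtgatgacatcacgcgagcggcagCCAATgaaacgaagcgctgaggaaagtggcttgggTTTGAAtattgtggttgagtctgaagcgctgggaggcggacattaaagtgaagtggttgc
KIF23: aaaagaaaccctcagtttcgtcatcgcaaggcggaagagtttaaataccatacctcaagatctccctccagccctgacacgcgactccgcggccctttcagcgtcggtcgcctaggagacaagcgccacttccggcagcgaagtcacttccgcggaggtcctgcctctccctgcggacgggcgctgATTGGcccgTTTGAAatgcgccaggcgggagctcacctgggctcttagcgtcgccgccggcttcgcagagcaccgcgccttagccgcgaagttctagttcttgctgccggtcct
KIF4A: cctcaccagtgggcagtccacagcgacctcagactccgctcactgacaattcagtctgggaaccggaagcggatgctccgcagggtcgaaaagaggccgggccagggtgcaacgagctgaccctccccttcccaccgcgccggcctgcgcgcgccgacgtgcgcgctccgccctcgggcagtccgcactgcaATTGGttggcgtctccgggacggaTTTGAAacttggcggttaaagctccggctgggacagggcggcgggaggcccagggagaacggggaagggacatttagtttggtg
KIF2A: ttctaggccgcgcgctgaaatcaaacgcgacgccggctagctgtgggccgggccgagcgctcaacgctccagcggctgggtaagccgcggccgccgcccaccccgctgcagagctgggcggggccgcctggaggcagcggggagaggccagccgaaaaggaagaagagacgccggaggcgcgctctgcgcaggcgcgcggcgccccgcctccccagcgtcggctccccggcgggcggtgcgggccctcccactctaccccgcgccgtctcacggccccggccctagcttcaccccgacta
KIF5B: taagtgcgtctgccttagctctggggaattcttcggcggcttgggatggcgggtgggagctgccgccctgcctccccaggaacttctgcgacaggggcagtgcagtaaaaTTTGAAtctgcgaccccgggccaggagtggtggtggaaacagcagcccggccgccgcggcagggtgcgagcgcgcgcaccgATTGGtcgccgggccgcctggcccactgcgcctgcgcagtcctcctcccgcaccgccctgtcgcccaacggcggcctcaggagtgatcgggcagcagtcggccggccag

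In the KIF18A window the CCAAT box begins 45 bases and the CHR 10 bases before the start, and in the KIF23 window they begin 64 and 55 bases before it. KIF4A, which has much the same pair at 58 and 34 bases before its start, fell little. In KIF5B the CHR match lies far upstream, 140 bases before the start, and the CCAAT box lies 59 bases before it. A match of these letters is a description and not a shown binding site.

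Windows were found for 29 of the 32 members, and KIF13B, KIF27 and KIFC2 had none. The RefSeq start can differ from the outer end of the gene model, as for KIF24, KIF5C, KIF7 and KIFC1. A CHR match was present in 6 of 8 mitotic members (75.0%), 3 of 5 other division members (60%), 1 of 10 transport members (10.0%) and 0 of the 6 remaining members. The letters occur in 9.19% of the 9487 promoters of tested genes and in 15.4% of all 27305 promoters of this length. A CCAAT box was present in 7 of 8 mitotic members (87.5%), 3 of 5 other division members (60%), 3 of 10 transport members (30.0%) and 3 of 6 remaining members (50%), against 37.3% of the promoters of tested genes and 35.7% of all promoters. The 9 members with both motifs were KIF11, KIF14, KIF18A, KIF18B, KIF20B, KIF23, KIF4A, KIF5B and KIFC1, and 3.96% of the promoters of tested genes had both. No CHR match shared a base with a CCAAT match. Of the 20 members with a window that fell, 9 had a CHR match and 11 had no match to these letters. The 11 were the division kinesins KIF2A, KIF2C, KIF20A and KIF22 and also KIF13A, KIF16B, KIF1B, KIF21A, KIF24, KIF3A and KIF3C. Only TTTGAA and TTCAAA were searched, so a window without a match may still hold a CHR of another spelling.

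**Figure D3:**
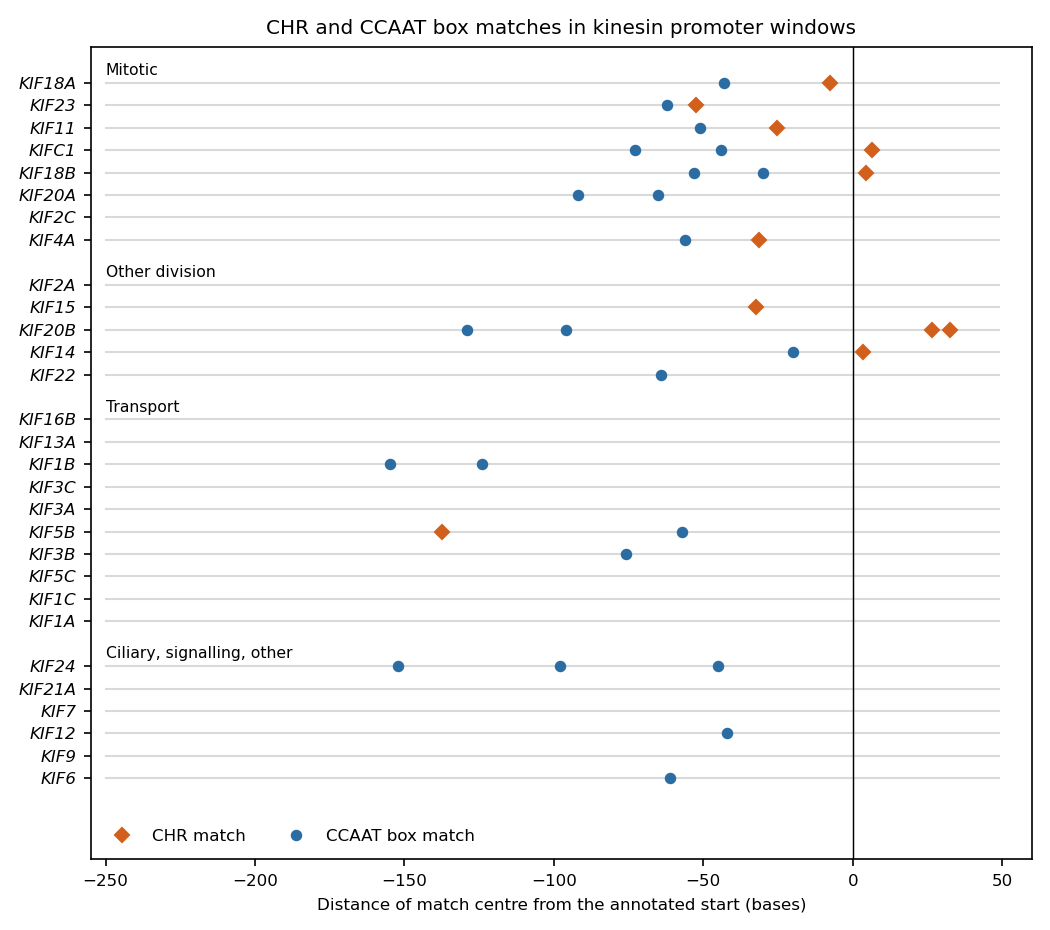
Distance of each CHR match (orange diamonds) and CCAAT box match (blue circles) from the annotated start for the 29 kinesin genes with a promoter window, ordered within each role by fold change, the largest fall on top. CHR matches begin between 55 bases before and 30 bases after the start in division kinesins, and the only match in a transport kinesin, KIF5B, begins 140 bases before it.

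KIF18A, which dampens the movements of chromosomes by limiting the growth of kinetochore microtubules, showed the largest fall of all members. Its level was 2.42, 2.74 and 2.02 CPM in CDKI-73 samples, against 13.4, 14.0 and 13.4 CPM in DMSO samples. The lowest DMSO sample was well above the highest CDKI-73 sample, and 17.6% of the DMSO mean was left. The log2 fold change was -2.47 ± 0.11 (SE, n = 3 each), a level 5.53-fold lower, with an adjusted p of 2.99e-07 by limma. The gene lies at chr11:28020619-28108156 on the minus strand (hg38), and its canonical GENCODE transcript has 17 exons.

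KIF23, the kinesin of the centralspindlin complex that bundles the spindle midzone for cytokinesis, came next. It was at 12.1, 11.7 and 10.1 CPM in CDKI-73 samples and 44.3, 48.5 and 47.4 CPM in DMSO samples. All CDKI-73 values lay close together and far from the DMSO values. The log2 fold change was -2.04 ± 0.08, or 4.12-fold lower, with a limma adjusted p of 1.26e-07. KIF23 lies at chr15:69414349-69448427 on the plus strand, and an antisense transcript, KIF23-AS1, overlaps its exons.

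KIF11, also called Eg5, pushes the spindle poles apart and is the kinesin most often targeted by antimitotic compounds. Its level was 38.9, 40.1 and 31.6 CPM in CDKI-73 samples, against 87.0, 96.7 and 96.3 CPM in DMSO samples, a log2 fold change of -1.34 ± 0.09 (adjusted p 3.26e-06, limma). KIFC1, a minus-end motor that crosslinks spindle microtubules and clusters extra centrosomes, fell about as much. It was at 16.8, 14.6 and 13.4 CPM in CDKI-73 samples and 35.6, 37.7 and 39.4 CPM in DMSO samples, a log2 fold change of -1.33 ± 0.09 (adjusted p 2.66e-06, limma). Both genes kept a little under 40% of their DMSO level, 39.5% for KIF11 and 39.7% for KIFC1.

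KIF18B, which trims astral microtubules, was at 8.24, 7.38 and 8.18 CPM in CDKI-73 samples and 16.5, 18.6 and 18.1 CPM in DMSO samples. Its log2 fold change of -1.15 ± 0.08 (adjusted p 2.81e-06, limma) was less than that of its paralogue KIF18A. KIF20A, which carries the chromosomal passenger complex to the midzone, was at 29.8, 29.0 and 28.3 CPM in CDKI-73 samples and 57.0, 61.9 and 65.0 CPM in DMSO samples. Replicates of KIF20A were close, and the log2 fold change was -1.08 ± 0.06 (adjusted p 8.80e-07, limma). Exons of BRD8 and CDC23 overlap KIF20A on the other strand, and they averaged 36.3 and 52.0 CPM in CDKI-73 samples against 74.4 and 87.3 CPM in DMSO samples. Their part in the KIF20A value was not tested. KIF18B and KIF20A stayed lower, but by less than 2-fold, when libraries were scaled by TMM, gene ratios or the upper quartile.

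KIF2C, also called MCAK, depolymerises microtubules at kinetochores and so releases wrong attachments. It was at 23.7, 25.0 and 25.0 CPM in CDKI-73 samples and 44.2, 46.8 and 46.1 CPM in DMSO samples, the log2 fold change being -0.89 ± 0.05 (adjusted p 1.09e-06, limma). The fall was clear against the spread but under 2-fold.

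KIF4A was the exception among the mitotic members. This chromokinesin condenses chromosome arms and, with PRC1, sets the length of midzone microtubules. It was at 50.7, 48.6 and 44.1 CPM in CDKI-73 samples and 51.6, 54.9 and 56.9 CPM in DMSO samples, so that the highest CDKI-73 sample almost reached the lowest DMSO sample. The log2 fold change was -0.19 ± 0.07 with a limma adjusted p of 0.030, next to the -0.18 of the median gene. The call was lost without CDKI-73 replicate 2 (0.052), DMSO replicate 2 (0.087) or DMSO replicate 3 (0.11). It was also lost with a replicate block (0.079), with no intensity trend (0.052) and under gene ratio scaling (-0.01, limma adjusted p 0.85). Scaling by TMM or the upper quartile turned the difference to 0.01 and 0.09, and neither passed. Exons of PDZD11, at 67.7 CPM in CDKI-73 samples and 52.1 CPM in DMSO samples, overlap KIF4A on the other strand, and the part of such reads in the KIF4A value was not tested. A near-identical intronless copy, KIF4B, was listed at a mean of 0.243 CPM.

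The other division kinesins fell as well. KIF2A, a depolymerase of spindle poles that also prunes neurites, was at 23.0, 23.6 and 17.7 CPM in CDKI-73 samples and 74.3, 74.8 and 72.7 CPM in DMSO samples. Its log2 fold change of -1.79 ± 0.10, or 3.47-fold lower, was the third largest fall of all members (adjusted p 1.12e-06, limma). KIF2A is also the division kinesin that is well known outside mitosis. Its window holds no match to the searched letters of either motif, and neither does that of the mitotic member KIF2C. DIMT1, whose exons overlap KIF2A on the other strand, averaged 55.1 CPM in CDKI-73 samples and 71.1 CPM in DMSO samples.

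KIF15, which can stand in for KIF11 in spindle assembly, was at 14.0, 13.8 and 11.7 CPM in CDKI-73 samples and 30.8, 34.3 and 33.9 CPM in DMSO samples. Its log2 fold change of -1.32 ± 0.08 (adjusted p 1.82e-06, limma) was close to that of KIF11. KIF20B, needed for the last steps of cytokinesis, was at 37.0, 39.1 and 30.1 CPM in CDKI-73 samples and 74.4, 84.6 and 83.1 CPM in DMSO samples, a log2 fold change of -1.19 ± 0.10 (adjusted p 1.03e-05, limma). It fell by less than 2-fold under TMM or upper quartile scaling.

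KIF14, which recruits citron kinase to the midbody, averaged 27.7 ± 1.37 CPM in CDKI-73 samples and 47.4 ± 2.38 CPM in DMSO samples (SD, n = 3 each), the log2 fold change being -0.77 ± 0.06 (adjusted p 7.16e-06, limma). KIF22, the chromokinesin Kid that pushes chromosome arms from the poles, changed least of the 5. It averaged 73.7 ± 5.45 CPM in CDKI-73 samples and 90.5 ± 0.485 CPM in DMSO samples, a log2 fold change of -0.30 ± 0.06 (adjusted p 0.0018, limma). This call was lost under TMM, gene ratio and upper quartile scaling, where the log2 fold change was -0.10, -0.12 and -0.02. KIF22 and KIF4A, the 2 chromokinesins among the members, were thus the division kinesins with the smallest falls, an observation made after their values were seen.

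Of the transport kinesins, KIF5B, the ubiquitous heavy chain of conventional kinesin-1, had by far the highest level. It was at 625.7, 638.6 and 550.5 CPM in CDKI-73 samples and 579.4, 609.7 and 604.2 CPM in DMSO samples. The groups overlapped, and the log2 fold change was 0.01 ± 0.06 (adjusted p 0.84, limma). KIF5C, the kinesin-1 heavy chain known mainly from neurons, averaged 73.8 ± 9.31 CPM in CDKI-73 samples and 64.8 ± 2.6 CPM in DMSO samples and did not pass (log2 fold change 0.18 ± 0.09, adjusted p 0.10, limma). KIF5C passed without CDKI-73 replicate 3, the library that stood apart (adjusted p 0.00019), and under TMM (0.38), gene ratio (0.36) and upper quartile scaling (0.46). KIF5B passed as higher under the same 3 scalings (0.21, 0.19 and 0.29) and as lower under the reference genes (-0.39), so that its direction depended on the scale.

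The kinesin-3 genes moved in different directions. KIF1C, which moves vesicles and mRNAs to the cell periphery, was at 216.6, 210.9 and 197.5 CPM in CDKI-73 samples and 163.9, 174.5 and 180.6 CPM in DMSO samples. The rise was small but the groups did not overlap (log2 fold change 0.27 ± 0.05, adjusted p 0.0023, limma). KIF1A, a carrier of synaptic and dense-core vesicle precursors in neurons, averaged 67.4 ± 4.95 CPM in CDKI-73 samples and 53.4 ± 4.57 CPM in DMSO samples, a log2 fold change of 0.33 ± 0.08 (adjusted p 0.0047, limma). Both signs turned when GAPDH, HPRT1 and ACTB set the scale, with log2 fold changes of -0.14 for KIF1C and -0.07 for KIF1A.

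KIF1B, whose isoforms carry mitochondria and synaptic vesicle precursors, fell instead. It averaged 87.2 ± 10.7 CPM in CDKI-73 samples and 159.4 ± 10.1 CPM in DMSO samples, a log2 fold change of -0.88 ± 0.09 (adjusted p 4.42e-05, limma). KIF13A, which moves cargo to recycling endosomes, averaged 26.2 ± 0.181 CPM in CDKI-73 samples and 51.4 ± 1.46 CPM in DMSO samples (log2 fold change -0.97 ± 0.05, adjusted p 4.15e-07, limma). KIF16B, a motor of early endosomes, averaged 7.72 ± 0.254 CPM in CDKI-73 samples and 15.5 ± 1.78 CPM in DMSO samples (log2 fold change -0.99 ± 0.09, adjusted p 2.31e-05, limma). These 3 genes of membrane traffic had the largest falls of the transport list, all under 2-fold. KIF16B was 1.98-fold, KIF13A 1.96-fold and KIF1B 1.84-fold lower. KIF16B passed 2-fold without CDKI-73 replicate 2 (-1.01) or DMSO replicate 1 (-1.09). Under the reference genes all 3 passed 2-fold (KIF16B -1.39, KIF13A -1.38 and KIF1B -1.28). KIF13B, their close relative, averaged 11.5 ± 1.43 CPM in CDKI-73 samples and 15.3 ± 1.36 CPM in DMSO samples (log2 fold change -0.41 ± 0.11, adjusted p 0.0075, limma). Its call was lost under TMM (-0.22), gene ratio (-0.24) and upper quartile scaling (-0.14).

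Kinesin-2 motors pair KIF3A with KIF3B or with KIF3C and drive anterograde transport in cilia and of vesicles. KIF3B was at 195.6, 199.5 and 175.6 CPM in CDKI-73 samples and 172.9, 172.2 and 174.0 CPM in DMSO samples. Its lowest CDKI-73 sample was just above its highest DMSO sample, and the difference did not pass (log2 fold change 0.13 ± 0.05, adjusted p 0.054, limma). It passed as higher without CDKI-73 replicate 3 (adjusted p 0.00069) and under TMM (0.33), gene ratio (0.31) and upper quartile scaling (0.41), and as lower under the reference genes (-0.27). The partner KIF3A averaged 57.9 ± 4.77 CPM in CDKI-73 samples and 71.4 ± 3.42 CPM in DMSO samples (log2 fold change -0.30 ± 0.07, adjusted p 0.0041, limma), a call that TMM (-0.11), gene ratio (-0.13) and upper quartile scaling (-0.03) ended. KIF3C averaged 4.22 ± 0.308 CPM in CDKI-73 samples and 6.10 ± 0.0569 CPM in DMSO samples (log2 fold change -0.52 ± 0.08, adjusted p 0.00061, limma).

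KIFC2, a minus-end motor known from axons in mouse, showed the largest rise of all members. Its level was 59.3, 60.6 and 68.4 CPM in CDKI-73 samples, against 34.5, 35.6 and 31.7 CPM in DMSO samples. The groups were far apart, and CDKI-73 samples held 185.0% of the DMSO mean. The log2 fold change was 0.88 ± 0.07 (adjusted p 8.53e-06, limma), and KIFC2 passed 2-fold under TMM, gene ratio and upper quartile scaling. It is a short gene, 8.15 kb at chr8:144466049-144474202 on the plus strand. FOXH1, on the other strand, overlaps its exons and was at 0.84 CPM in CDKI-73 samples and 0.29 CPM in DMSO samples, far below KIFC2.

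The remaining kinesins were mostly low. KIF24, a centriolar kinesin that restrains cilium assembly, was at 6.66, 6.59 and 5.51 CPM in CDKI-73 samples and 13.0, 13.7 and 15.3 CPM in DMSO samples, a log2 fold change of -1.15 ± 0.10 (adjusted p 1.33e-05, limma). UBAP1, whose exons overlap KIF24 on the other strand, averaged 31.6 CPM in CDKI-73 samples and 74.6 CPM in DMSO samples, and its part in the KIF24 value was not tested. KIF27, a relative of the Hedgehog regulator KIF7, was at 2.54, 2.31 and 2.41 CPM in CDKI-73 samples and 5.43, 5.78 and 6.45 CPM in DMSO samples, a log2 fold change of -1.25 ± 0.10 (adjusted p 7.07e-06, limma). Both stayed lower under every scaling, but KIF24 fell by less than 2-fold under TMM and gene ratio scaling, and both did under the upper quartile.

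KIF21A, which holds back microtubule growth at the cell cortex, was the most abundant of these genes. It averaged 72.8 ± 2.89 CPM in CDKI-73 samples and 131.7 ± 6.30 CPM in DMSO samples (log2 fold change -0.85 ± 0.05, adjusted p 1.69e-06, limma). KIF9, a kinesin of motile cilia, averaged 13.4 ± 1.86 CPM in CDKI-73 samples and 11.3 ± 0.531 CPM in DMSO samples and did not pass (log2 fold change 0.24 ± 0.10, adjusted p 0.059, limma). It passed without CDKI-73 replicate 1 (0.047) or replicate 2 (0.048), and more clearly under TMM (log2 fold change 0.44, adjusted p 0.0051), gene ratio (0.42, 0.0066) and upper quartile scaling (0.52, 0.0019). KIF6, KIF7 and KIF12 were at means of 0.513, 0.687 and 0.948 CPM over the 6 samples, where 0.5 CPM stands for 23 to 30 reads, and none of the 3 passed, with standard errors of 0.19, 0.21 and 0.17 on the log2 scale. KIF6 passed as higher under upper quartile scaling (adjusted p 0.036) and KIF7 as lower under the reference genes (adjusted p 0.018). On the other strand, exons of KLHL18 overlap KIF9 and exons of TICRR overlap KIF7. KLHL18 averaged 15.6 CPM in CDKI-73 samples and 36.8 CPM in DMSO samples, and TICRR 4.16 and 20.6 CPM. Their part in the KIF9 and KIF7 values was not tested.

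KIF6 and KIF7 were the members just inside the minimum, and KIF21B (0.372 CPM) and KIF26A (0.35 CPM) were the rows just outside it. The other kinesin rows under the minimum were KIF4B, KIF25, KIF17, KIFC3, KIF5A, KIF19, KIF26B and KIF2B, the last of them at 0 in every sample. KIF21B, a kinesin of neurons and immune cells, was at 0.29, 0.17 and 0.15 CPM in CDKI-73 samples and 0.67, 0.5 and 0.45 CPM in DMSO samples, so that its groups did not overlap, but it entered no test.

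Kinesins that share a number allow a comparison within each library that no scaling can change. The ratio of KIF18A to KIF18B was 0.294, 0.371 and 0.247 in CDKI-73 samples, against 0.813, 0.75 and 0.743 in DMSO samples, a difference in log2 ratio of -1.36 ± 0.18 (SE). KIF1A to KIF1B moved the other way, at 0.767, 0.738 and 0.825 in CDKI-73 samples against 0.328, 0.334 and 0.343 in DMSO samples (1.21 ± 0.05). In both pairs the groups were widely separated.

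KIF2A lost ground to KIF2C (-0.90 ± 0.15), KIF1B to KIF1C (-1.15 ± 0.07), KIF13A to KIF13B (-0.56 ± 0.12) and KIF3A to KIF3B (-0.44 ± 0.05). The kinesin-2 ratio of KIF3B to KIF3C was 45.1 ± 1.37 in CDKI-73 samples and 28.4 ± 0.134 in DMSO samples (SD), a log2 difference of 0.67 ± 0.03. Of 11 such pairs, 9 had groups that did not overlap, with the smallest p that the exact two-sided permutation test of 3 against 3 allows, 0.1, and a Benjamini-Hochberg adjusted value of 0.122. The design cannot reach 0.05 with this test. The KIF1 pairs share genes with each other, as do the KIF3 pairs, so the 11 pairs are not independent comparisons. Groups did not overlap for 75.9% of single tested genes, and pairs of other genes were not examined. KIF20A to KIF20B (0.12 ± 0.10, p = 0.4 in the exact test) and KIF1A to KIF1C (0.07 ± 0.04, p = 0.2 in the exact test) had overlapping groups.

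**Figure D4:**
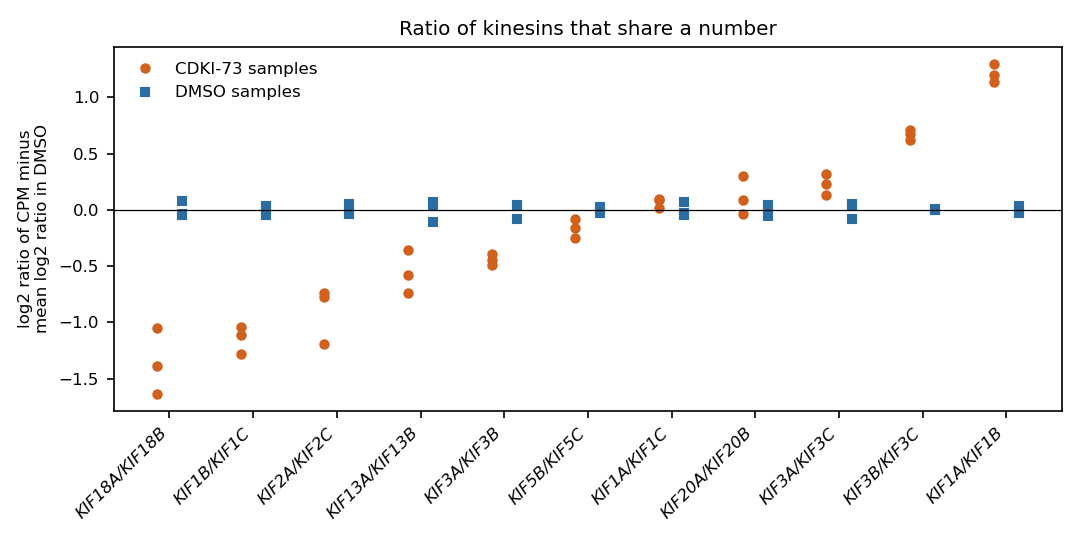
log2 ratio of CPM within each sample for 11 pairs of kinesins that share a number, minus the mean of that log2 ratio in DMSO samples, with CDKI-73 samples (orange circles) left of DMSO samples (blue squares). KIF18A/KIF18B lies lowest (-1.36 on average) and KIF1A/KIF1B highest (1.21).

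Levels can be set side by side between genes once divided by transcript length. In DMSO samples, per kb of the canonical transcript, KIF5B stood at 101.9 ± 2.76 CPM per kb, KIF22 at 43.5 ± 0.233, KIF3B at 28.3 ± 0.15 and KIF1C at 21.9 ± 1.07 (SD, n = 3). KIF21A at 20.7 ± 0.990, KIF20A at 19.8 ± 1.30 and KIF11 at 18.6 ± 1.10 CPM per kb followed, and these neighbours, with KIF1C, differed by about as much as their spread. In CDKI-73 samples KIF5B (103.1 ± 8.11), KIF22 (35.4 ± 2.62), KIF3B (31.1 ± 2.10) and KIF1C (26.3 ± 1.24 CPM per kb) kept the leading places, while KIFC2 stood at 19.2 ± 1.5 CPM per kb, against 10.4 ± 0.617 in DMSO samples. KIF11 was at 7.35 ± 0.912 CPM per kb in CDKI-73 samples.

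Gene span was set beside the change of each gene. Across the 32 members, the Pearson correlation of log2 gene span with log2 fold change was -0.10 and the Spearman correlation was -0.05. Over 11750 tested genes with a RefSeq span they were 0.03 and -0.08. These are correlations across genes of the same libraries, given as a description. The median span was 31.0 kb for mitotic, 73.3 kb for other division, 82.5 kb for transport and 81.3 kb for the remaining members. Their median log2 fold changes were -1.24, -1.19, -0.14 and -0.29. A part of gene length in these changes was not tested.

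Proteins that work with kinesins were described from lists written for this work. Of 11 partners of mitotic kinesins, 10 fell (90.9%, against 48.2% of all tested genes) and 1, NUMA1, did not pass. A fall of at least 2-fold was called for 2 of them (18.2%), against 22.3% of all tested genes. The median log2 fold change of the list was -0.49. PSRC1, which recruits KIF2A to the spindle, was at 3.19, 3.37 and 3.67 CPM in CDKI-73 samples and 16.8, 16.7 and 16.7 CPM in DMSO samples (log2 fold change -2.26 ± 0.08, adjusted p 8.17e-08, limma). CENPE, the kinesin of the kinetochore corona whose symbol the rule does not match, was at 64.9, 63.4 and 47.5 CPM in CDKI-73 samples and 111.3, 125.1 and 122.8 CPM in DMSO samples (log2 fold change -1.04 ± 0.12, adjusted p 6.17e-05, limma). CKAP2 and TPX2, spindle microtubule proteins, fell less, with log2 fold changes of -0.68 and -0.56 (adjusted p 1.80e-05 and 0.00015, limma). RACGAP1, the partner of KIF23 in centralspindlin, had a log2 fold change of -0.52 ± 0.04 and PRC1, the partner of KIF4A, one of -0.24 ± 0.05. The list held 6 falls under TMM or gene ratio scaling, 5 under the upper quartile and 11 under the 3 reference genes.

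Of 15 light chains and cargo adaptors of transport kinesins, 4 fell (26.7%), 6 rose (40%) and 5 did not pass, with a median log2 fold change of 0.21. Of all tested genes 48.2% fell and 24.2% rose. TRAK2, which couples mitochondria to kinesin-1, was at 27.5, 27.6 and 25.5 CPM in CDKI-73 samples and 56.2, 55.7 and 55.9 CPM in DMSO samples (log2 fold change -1.06 ± 0.05, adjusted p 4.02e-07, limma). RHOT1, the mitochondrial anchor of TRAK proteins, also fell (-0.45 ± 0.04, adjusted p 3.07e-05, limma), whereas its paralogue RHOT2 rose (0.42 ± 0.08, adjusted p 0.0015, limma). MAPK8IP3, a scaffold for axonal cargo, rose most, to 35.8, 37.3 and 37.9 CPM in CDKI-73 samples, against 23.3, 22.8 and 23.9 CPM in DMSO samples (0.66 ± 0.05, adjusted p 6.32e-06, limma). Under TMM and gene ratio scaling 3 fell and 11 rose, and under upper quartile scaling 2 fell and 11 rose, with medians of 0.39 to 0.49. Under the reference genes the median was -0.19, with 9 falls and 1 rise.

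Exons of another gene overlapped 16 of the 32 members on the other strand. The libraries were stranded, but no source used here says which strand was counted.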

How the data were processed

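The deposited table gives CPM per gene symbol for 29744 genes in 6 samples. Single-end stranded reads were aligned to hg38 with STAR by the authors, who scaled gene counts to CPM, and the submitters' processing notes name edgeR 3.3 and R 3.2.3. The values carry 2 decimals and the columns have equal totals, so no TMM factor is in them. No source used here gives the annotation or the strand counted. The study's own test ran on counts. Since CPM are not counts, log2(CPM + 0.1) was fitted here with limma 3.58.1 in R 4.3.3 (lmFit and eBayes with an intensity trend, no block) over the 13373 genes averaging 0.5 CPM or more, with Benjamini-Hochberg adjustment over all of them. Called genes had an adjusted p of 0.05 or less. Standard errors are those of limma, the pseudocount makes fold changes of low genes too small, and p-values measure the spread between these cultures of 1 cell line. The fit was tested on simulated data.

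Gene models, exons and transcript lengths came from GENCODE on hg38 and promoters from RefSeq. By rule, per-sample values were given for the mitotic members, members called at 2-fold and the 3 most abundant, and the 4 genes with the largest called changes were named from each other list. KIFC2 and KIF21B per sample, and RACGAP1, PRC1, NUMA1, DYNC1H1 and TUBB, were added after their values were seen. The members, lists and motifs were chosen with earlier results of these data known. Pseudocounts of 0.01 and 1, no filter or a mean CPM of 2, 4 scalings, no trend, a robust fit, a replicate block and each sample left out were tried. Some marker genes are not reported here.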

Additional observations from a re-analysis of the deposited data

How the results depend on the processing

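The CPM scale a gene against all other polyA RNA, and other scalings moved the median log2 fold change of all genes by 0.19 (TMM), 0.17 (median of gene ratios), 0.27 (upper quartile) and -0.40 (GAPDH, HPRT1 and ACTB). Kinesin genes lower by at least 2-fold then numbered 7 under TMM, 6 under the upper quartile and 17 under the reference genes, against 11. All tested genes lower by at least 2-fold numbered 2500, 2296 and 4377, against 2986. Under TMM, gene ratios and the upper quartile 1 gene, KIFC2, was higher by at least 2-fold, and 7, 7 and 8 were higher at the adjusted p, while 1 was under the reference genes. Leaving out 1 sample gave 11 to 12 genes lower by at least 2-fold and 3 to 5 higher at the adjusted p, 5 without CDKI-73 replicate 3, which added KIF5C and KIF3B.

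The sign turned for the following genes. KIF12 was at 0.15, 0.14 and 0.23 under TMM, gene ratios and the upper quartile, and KIF4A at 0.0060 under TMM and 0.0858 under the upper quartile. Under the reference genes KIF5B was at -0.39, KIF1C at -0.14, KIF5C at -0.23, KIF1A at -0.0731, KIF3B at -0.27, KIF9 at -0.16 and KIF6 at -0.0635. With 1 sample left out KIF5B ranged from -0.0262 to 0.0808 and KIF12 from -0.142 to 0.0846. By construction a scaling shifts all genes alike.

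Same-numbered replicates did not deviate together (correlations -0.30, 0.11 and -0.23), so the numbers do not pair the samples. With a replicate block 11 kinesin genes were lower by at least 2-fold, 21 lower and 3 higher at the adjusted p, KIF4A being the lost call (0.079). Of the changes of single members under the alternatives, 490 kept their direction and call, and 18 gained and 15 lost a call in the same direction. A level of 0.5 CPM, near those of KIF6 and KIF7, rests on 23 to 30 reads per sample.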

Other observations

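Cytoplasmic dynein and dynactin, which carry cargo opposite to most kinesins, were measured in the same samples. Of 25 genes 8 fell (32%), 8 rose (32%) and 9 did not pass by limma at an adjusted p of 0.05, with a median log2 fold change of 0.14. Among all tested genes 48.2% fell and 24.2% rose. The largest falls were of regulators rather than motor subunits. NDEL1 was at 14.4, 16.2 and 12.4 CPM in CDKI-73 samples and 39.0, 44.4 and 46.5 CPM in DMSO samples (-1.59 ± 0.11, adjusted p 2.76e-06, limma), and its paralogue NDE1 was at 7.60, 7.98 and 6.86 CPM in CDKI-73 samples and 16.9, 17.9 and 19.2 CPM in DMSO samples (-1.26 ± 0.08, adjusted p 2.38e-06, limma). Their binding partner PAFAH1B1, also called LIS1, fell by 0.94 ± 0.06 on the log2 scale (adjusted p 1.26e-06, limma), and the dynactin subunit DCTN5 fell by 0.79 ± 0.10 (adjusted p 0.00011, limma). The heavy chain DYNC1H1 averaged 319.4 ± 57.0 CPM in CDKI-73 samples and 251.1 ± 43.6 CPM in DMSO samples and did not pass. The list held 7 falls and 15 rises under TMM, 7 and 14 under gene ratio and 6 and 16 under upper quartile scaling, but 16 falls and 0 rises under scaling by GAPDH, HPRT1 and ACTB, where its median was -0.27.

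Tubulins are the subunits of the microtubule track. Of 14 genes 3 fell (21.4%), 3 rose (21.4%) and 8 did not pass, with a median log2 fold change of 0.08. The shares over all tested genes were 48.2% and 24.2%. There were 2 falls and 8 rises under TMM, gene ratio and upper quartile scaling (medians 0.25 to 0.35), and 10 falls and 0 rises under the 3 reference genes (median -0.32). The abundant TUBB averaged 1225 ± 17.2 CPM in CDKI-73 samples and 1218 ± 23.4 CPM in DMSO samples. TUBD1, delta tubulin of centrioles, was the exception, at 5.20, 5.30 and 4.04 CPM in CDKI-73 samples and 21.9, 23.0 and 21.1 CPM in DMSO samples (-2.17 ± 0.11, adjusted p 5.00e-07, limma). TUBE1, epsilon tubulin, also fell (-0.62 ± 0.07, adjusted p 6.12e-05, limma), while TUBB4A (0.41 ± 0.08, adjusted p 0.0027, limma) and TUBB3 (0.38 ± 0.09, adjusted p 0.0045, limma) rose.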
